A study of Mus musculus with 7 samples.

Results

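Lysosomal hydrolases, cathepsins, lysosomal membrane proteins and their regulators were examined in growth plates of B6 × CAST F1 mice. The set holds 40 genes, chosen by symbol and not by a rule on measured values, though with earlier results of these data known. All 40 were found among the 43346 genes of the deposited counts. Each of the 7 samples was the growth plate cartilage of the proximal and distal tibia of 1 male C57BL/6JxCAST/EiJ F1, untreated and 21 days old, so there was 1 condition. The labels call the samples chondrocytes, but dissected whole tissue was homogenized and no cells were sorted. Each autosomal gene was present as a B6 allele and a CAST allele, and the comparison was between these alleles within the same mice. It addresses whether the expression of a gene differs between the strains through changes near the gene itself, since both copies share the same cells. X-linked counts of these males came mostly from B6, which makes B6 the maternal strain in all 7 mice, so strain and parent of origin cannot be told apart. The mice are numbered 1, 2, 3, 4, 5, 7 and 8, as in their labels, and each count of mice below is out of 7.

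Lysosomes are acidic compartments in which enzymes take apart material brought in from outside the cell or from within it. The mucopolysaccharidoses are inherited diseases in which an enzyme that degrades glycosaminoglycans, the sugar chains of cartilage proteoglycans, is missing, and short stature and a deformed skeleton are frequent features. Many lysosomal genes are controlled by the transcription factor TFEB, which binds a palindromic E-box motif known as the CLEAR element. Osteoclasts and macrophages, which lie beside growth plate cartilage, are known for a high content of lysosomal enzymes.

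The CLEAR core lies in the promoters of several of these genes, which is why the windows below are shown. RefSeq promoters (GRCm38.p6, from 250 bases before to 50 bases after the start, 300 bases in all) were matched by symbol for 34 of the 40 genes. Asah1, Ctsb, Ctsh, Galns, Hgsnat and Npc1 were not matched. Windows of 28 bases on the strand of the gene are given for the 6 genes with TCACGTGA, with the match in capitals.

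Cln3 (chr7:126583341-126583368, minus strand): acgggtactGTCACGTGACccccaacct
Ctsa (chr2:164833750-164833777, plus strand): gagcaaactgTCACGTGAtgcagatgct
Ctsa (chr2:164833767-164833794, plus strand): atgcagatgcTCACGTGAccagagctac
Ctsd (chr7:142387909-142387936, minus strand): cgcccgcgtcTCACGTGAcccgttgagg
Gnptg (chr17:25240121-25240148, minus strand): cggctgtcacTCACGTGAccgtgagacc
Mcoln1 (chr8:3500463-3500490, plus strand): ggcgccccgcTCACGTGAccgcggcgca
Sumf1 (chr6:108185578-108185605, minus strand): gcaccacaggTCACGTGAtctccatggg

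The letters CACGTG, TCACGTGA and the latter with G before and C after it were searched. Each reads the same on both strands and contains the shorter ones. CACGTG was found for 13 of the 34 genes (38.2%), against 8.09% of the 27025 genes with a promoter in the table. TCACGTGA was found for 6 of the 34 (17.6%), against 1.12% of all. The longest form was found for Cln3 alone among the 34 (2.94%), against 0.37% of all. Lamp1 held 4 copies of CACGTG, the most of any of the 13 genes. These are matches of letters in a window, not measured binding sites.

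**Figure D1:**
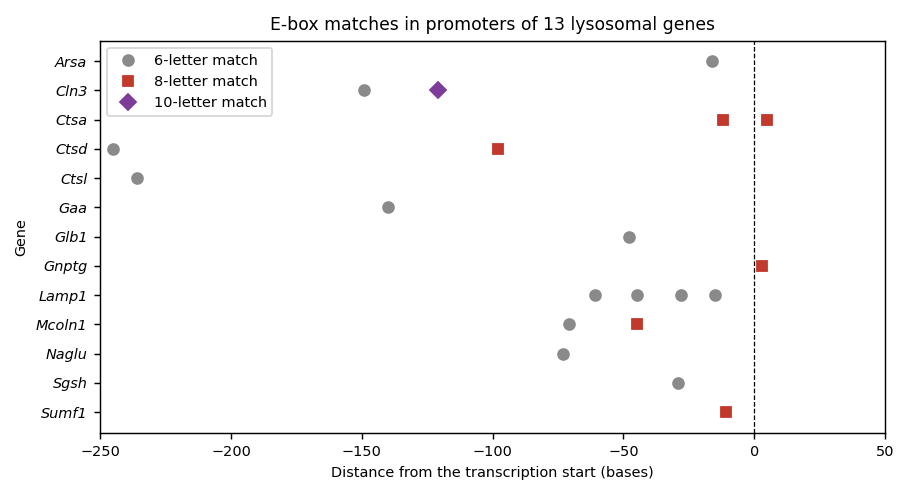
Position of each CACGTG match (x axis, bases from the transcription start, from 250 before to 50 after) in the 13 lysosomal genes (y axis) whose RefSeq promoter holds one; squares and the diamond mark matches that extend to the 8-letter and 10-letter palindromes. The 20 matches include 4 in Lamp1, all between 61 and 15 bases before the start.

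Total counts per mouse ran from 14098019 to 37849667, and all 40 genes had at least 75 counts in every mouse. The counts are estimates: a read matching both alleles or more than 1 gene was split among them, so an allele count also holds reads without a strain difference. All 8 chondrocyte markers were detected in every mouse, with a sum between 58737 and 105710 CPM (counts scaled to a common library size). The tissue also held other cells. Sums were 3586 to 5408 CPM for 8 osteoclast markers, 464 to 591 for 8 macrophage markers and 1532 to 3068 for 7 neutrophil markers, with every marker detected in every mouse.

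Alleles were compared with edgeR's likelihood-ratio test over all 20020 genes with a count in every mouse, as in the methods of the study, and log2 fold changes are CAST over B6. A gene was called at a false discovery rate (FDR) under 0.20, the threshold of the study. Of the 38 autosomal lysosomal genes, 18 were called, 10 with the CAST allele higher and 8 with the B6 allele higher, and 20 were not called. The called share was 47.4%, beside 34.8% of all genes tested and 33.1% of all autosomal genes tested. Of the autosomal protein-coding genes whose total reached 10 counts in each mouse, 34.1% were called. By direction, 17.6% of those protein-coding genes were called as higher on CAST and 16.5% as higher on B6. The median log2 fold change of the 38 genes was 0.02, as was that of the protein-coding genes, and the median size without regard to sign was 0.17 and 0.16. The shift of all tested genes was 0.01. Calls lay in both directions in near-equal numbers, and the called share of the 38 genes was above the background by a margin that was not tested. The backgrounds here and below were not matched for counts. The lysosomal genes had at least 75 in every mouse, the protein-coding genes at least 10. The part of count depth in the margins was not tested.

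In 21 of the 38 genes all 7 mice had the same allele higher (55.3%, beside 24.7% of all genes, 22.9% of autosomal genes and 26.1% of the protein-coding genes), on CAST for 11 and on B6 for 10. For each of these the exact two-sided sign-flip permutation test of the log2 ratio over mice gave p = 0.0156, the smallest that 7 mice allow. After Benjamini-Hochberg adjustment over all 20020 genes it was 0.0633. Any gene with the same direction in all 7 mice gives this p, so the test adds nothing to the shared direction. Of the 21 genes, 16 were among the 18 called. The exceptions among the called genes were Naglu, in which mouse 5 had the opposite direction, and Mcoln1, in which mouse 3 did. Since a library holds both alleles of its mouse, a second fit used the mouse as a replicate block. This paired fit called 28 of the 38 genes (73.7%), beside 45.6% of all genes, 44.4% of autosomal genes and 50.1% of the protein-coding genes. The 28 were the same 18 and 10 more. These 10 are named below with the blocked FDR of the likelihood-ratio test and then of edgeR's quasi-likelihood test.

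**Figure D2:**
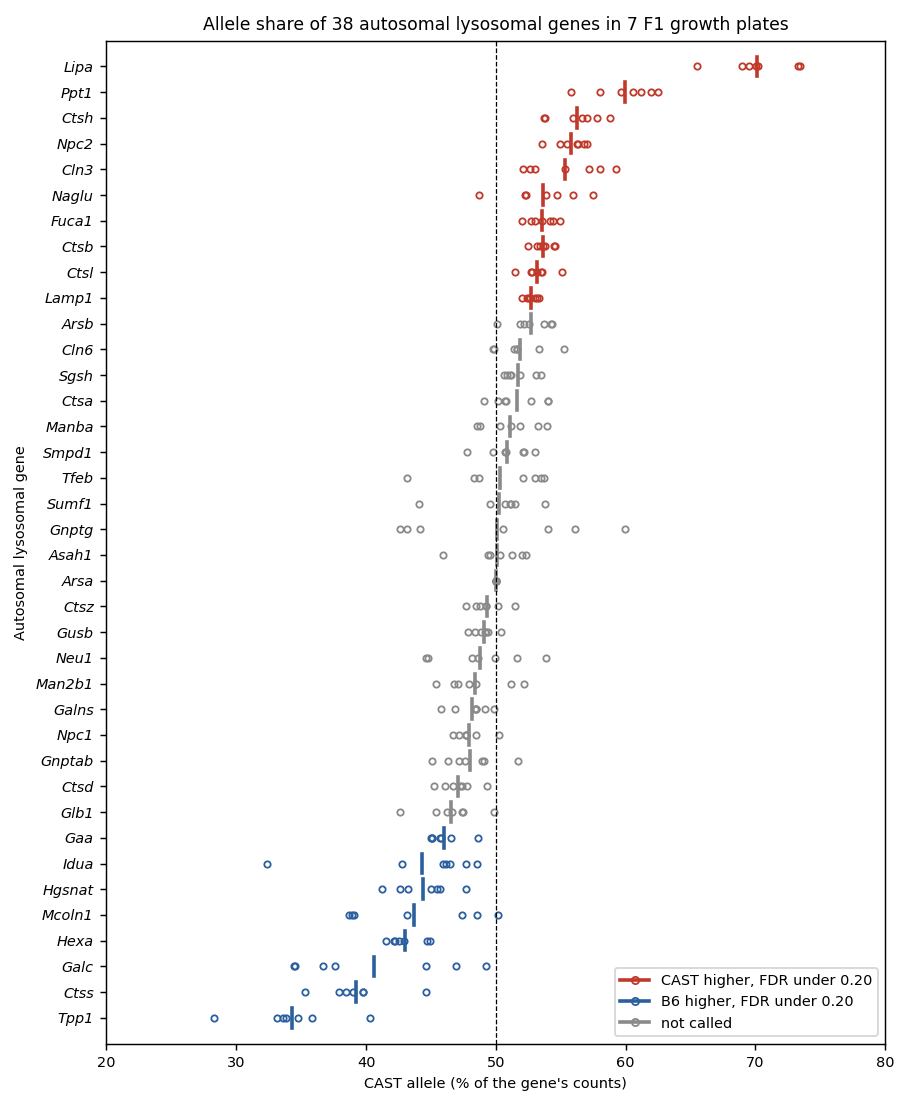
Share of each gene's counts from the CAST allele (x axis, %) for the 38 autosomal lysosomal genes (y axis, ordered by log2 fold change); each open circle is 1 of 7 mice, bars are means, and the dashed line marks 50%. Lipa lies at 65.5% to 73.5% CAST and Tpp1 at 28.3% to 40.3%, while Arsa sits at 50% in every mouse.

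The widest allele difference among the autosomal genes was that of Lipa, which encodes lysosomal acid lipase, the enzyme that frees cholesterol and fatty acids from lipids taken up by the cell. Lipa (chromosome 19, 34492318 to 34527474, GRCm38/mm10) had 507 counts in the lowest mouse, 911 at the median and 1327 in the highest from the CAST allele. From the B6 allele it had 225, 362 and 569. CAST was higher in every mouse, with a share of 70.1% ± 2.72 (SD, n = 7). The fold change was 2.38 (log2 1.25, FDR 6.16e-40).

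Tpp1 showed the widest difference toward B6. It encodes tripeptidyl peptidase 1, a protease that trims short peptides from the ends of proteins and is lost in a childhood neuronal ceroid lipofuscinosis. Tpp1 (chromosome 7, 105744811 to 105752235) had 185, 267 and 439 CAST counts at the lowest, median and highest mouse and 275, 541 and 859 B6 counts. The CAST share was 34.3% ± 3.56 (SD, n = 7) and below 50% in every mouse. B6 was higher by 1.91-fold (log2 -0.94, FDR 5.41e-24).

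Ppt1 and Cln3, also lipofuscinosis genes, leaned the other way. Ppt1 encodes palmitoyl-protein thioesterase 1, which removes fatty acids from proteins. Ppt1 (chromosome 4, 122836242 to 122859175) had 481, 883 and 1266 CAST counts and 296, 576 and 803 B6 counts at the lowest, median and highest mouse, and CAST was 1.51-fold higher (log2 0.60, FDR 4.92e-10). Cln3, a lysosomal membrane protein, had 140, 239 and 359 CAST counts against 129, 174 and 318 B6 counts, a log2 fold change of 0.32 (FDR 0.0113). CAST was higher in all 7 mice for both genes. Their totals were not whole numbers in any mouse, so some of their reads were divided with other genes. Ppt1 overlaps Cap1 and Cln3 overlaps Apobr on the opposite strand. Hexa and Ctsz also overlap genes on the opposite strand, yet their totals were whole in all 7 mice. The reason for the division was not tested.

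Cln6, the last of the 4 genes grouped here as lipofuscinosis genes, is an endoplasmic reticulum protein. It lies with Hexa in Feml2, the region of chromosome 9 that the study mapped for femur length. Cln6 (62838785 to 62852006) had 121, 237 and 402 CAST counts and 121, 222 and 352 B6 counts. The ranges of the alleles overlapped almost wholly, but they follow the depth of the mice and do not compare alleles within a mouse. The log2 fold change was 0.12 and was not called (FDR 0.503, blocked FDR 0.0238 and 0.0628), with CAST higher in 5 of 7 mice. Its total was not whole in any mouse.

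Hexa was called toward B6. It encodes the alpha subunit of beta-hexosaminidase A, the enzyme of ganglioside breakdown that is missing in Tay-Sachs disease. Hexa (chromosome 9, 59539540 to 59565109) had 1691, 2660 and 4210 CAST counts at the lowest, median and highest mouse and 2314, 3744 and 5604 B6 counts. B6 was higher in every mouse, and the CAST share of 43.0% ± 1.31 (SD, n = 7) varied little. The B6 allele was 1.31-fold higher (log2 -0.39, FDR 0.00269), and the total was whole in all 7 mice.

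**Figure D3:**
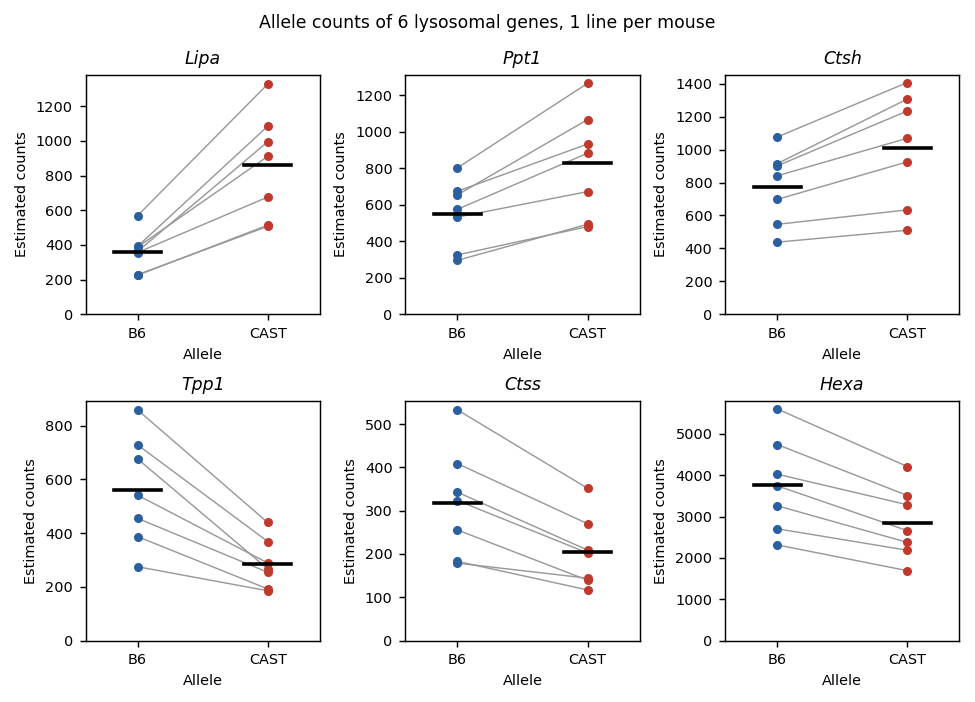
Estimated counts (y axis, from 0) of the B6 and CAST alleles of 6 genes, with 1 grey line per mouse and black bars for means over 7 mice. Every line rises from B6 to CAST in Lipa, Ppt1 and Ctsh and falls in Tpp1, Ctss and Hexa, while the spread along each column follows the depth of the mice.

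Among the other lipid hydrolases, Galc, the galactosylceramidase that breaks down myelin lipids, had the fewest counts of the set. It had 25.8, 70.5 and 89.6 CAST counts and 49.2, 78.7 and 154 B6 counts at the lowest, median and highest mouse. B6 was higher in all mice, by 1.45-fold (log2 -0.54, FDR 0.00179), though the log2 ratio ran from -0.92 in mouse 1 to -0.04 in mouse 2. Asah1 (acid ceramidase), Smpd1 (acid sphingomyelinase) and Arsa (arylsulfatase A, a sulfatide-degrading enzyme) were not called, with log2 fold changes between 0.02 and 0.07. With the block Smpd1 had an FDR of 0.195, and 0.238 with the block and the quasi-likelihood test, which left 9 of the 10 added calls. The alleles of Arsa were equal in every mouse, at 192 counts each in the lowest mouse and 501 each in the highest. Equal counts are what the method gives a gene with no read that tells the alleles apart, and no allele difference can be read from Arsa here.

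Of the 8 autosomal enzymes of glycosaminoglycan breakdown, 3 were called (37.5%, beside 33.1% of all autosomal genes). Hgsnat, the acetyltransferase of heparan sulfate breakdown, had 323, 580 and 716 CAST counts and 396, 753 and 940 B6 counts. B6 was higher in all 7 mice (log2 -0.31, FDR 0.00217). Idua, the iduronidase missing in Hurler syndrome, had a log2 fold change of -0.29 (FDR 0.0504) with B6 higher in all 7 mice. Mouse 4 lay apart with a log2 ratio of -1.06, and without it the log2 fold change was -0.20 (FDR 0.156). The total of Idua was not whole in any mouse, and its exons overlap those of Dgkq and Slc26a1 on the opposite strand. Naglu, the N-acetylglucosaminidase of heparan sulfate breakdown, was called toward CAST (log2 0.23, FDR 0.117). It lost the call without mouse 7 (FDR 0.256) or mouse 8 (FDR 0.241).

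The other 5 were not called. Glb1, the beta-galactosidase of keratan sulfate and ganglioside breakdown, had 603, 969 and 1392 CAST counts and 681, 1144 and 1593 B6 counts. B6 was higher in all mice by a log2 fold change of -0.19 (FDR 0.231, blocked 0.00014 and 0.0215), and without mouse 4 its FDR was 0.183. Arsb, which removes sulfate from dermatan and chondroitin sulfate, had a log2 fold change of 0.17 (FDR 0.391, blocked 5.89e-06 and 0.00667). Sgsh, the sulfamidase of heparan sulfate, had 0.11 (FDR 0.386, blocked 0.0296 and 0.037). Galns, the sulfatase of keratan sulfate, had -0.09 (FDR 0.652, blocked 0.0962 and 0.105). In Arsb and Sgsh every mouse had more CAST counts and in Galns more B6 counts, with log2 ratios from 0.01 to 0.25 in Arsb and from -0.24 to -0.01 in Galns. Gusb, the beta-glucuronidase, had a log2 fold change of -0.04 (FDR 0.894). Totals of Glb1, Arsb and Sgsh were not whole in any mouse, and exons of Glb1 overlap those of Tmppe on the same strand.

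Among enzymes of glycoprotein and glycogen breakdown, Fuca1, which removes fucose, was called toward CAST (log2 0.23, FDR 0.0901) and Gaa, the acid alpha-glucosidase that degrades glycogen, toward B6 (log2 -0.22, FDR 0.185). Each had the same direction in all 7 mice. The call of Gaa was lost without any of mice 1, 2, 3, 5 and 8, with FDR values between 0.244 and 0.312, and without a filter on low counts (FDR 0.212). Neu1 (sialidase), Ctsa (the protective protein that stabilizes it), Manba and Man2b1 (mannosidases) were not called, with log2 fold changes between -0.07 and 0.11. Ctsa was called with the block (FDR 0.0315 and 0.0961), but its total was not whole in any mouse.

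Of the 6 genes grouped here as cathepsins, proteases of the lysosome, 4 were called (66.7%, beside 33.1% of all autosomal genes). This share leaves out the cathepsin Ctsa, which was counted above with the glycoprotein enzymes and was not called (FDR 0.479). Ctss, a cysteine protease of antigen-presenting cells, had 117, 202 and 352 CAST counts and 179, 324 and 533 B6 counts at the lowest, median and highest mouse. Ctss (chromosome 3, 95526786 to 95556403) was 1.52-fold higher on B6 (log2 -0.61, FDR 1.06e-06), in every mouse. Ctsh, an aminopeptidase, had 510, 1069 and 1408 CAST counts and 438, 841 and 1076 B6 counts. Ctsh (chromosome 9, 90054152 to 90076089, outside Feml2) was 1.31-fold higher on CAST (log2 0.39, FDR 8.78e-05), in every mouse.

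Ctsb and Ctsl, broad-acting cysteine proteases, leaned to CAST by smaller amounts. Ctsb had 4122, 7092 and 10508 CAST counts and 3439, 6182 and 8753 B6 counts, a log2 fold change of 0.23 (FDR 0.0312). Its CAST share of 53.6% ± 0.743 (SD, n = 7) lay above 50% in every mouse, but its total was not whole in any. Ctsl had a log2 fold change of 0.20 (FDR 0.173). Its call was lost without any of mice 1, 2, 3, 7 and 8 (FDR 0.205 to 0.286), with 1 library size per mouse (FDR 0.312) and with autosomal genes only (FDR 0.207). Ctsd, the main aspartic protease, was not called, with a log2 fold change of -0.15 (FDR 0.356, blocked 1.01e-06 and 0.00618) and B6 higher in all mice. The total of Ctsd was not whole in any mouse, and its exons overlap those of Gm49369 on the same strand. Ctsz was balanced, with a CAST share of 49.3% ± 1.23 (SD, n = 7).

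The membrane and cholesterol-transport genes were divided. Npc2, the soluble cholesterol carrier, had 2132, 3428 and 5276 CAST counts and 1709, 2895 and 4101 B6 counts. CAST was higher in every mouse (log2 0.35, FDR 0.012). Its membrane partner Npc1 had a log2 fold change of -0.11 and was not called (FDR 0.43, blocked 0.000732 and 0.0232). The total of Npc1 was not whole in any mouse. Lamp1, the most abundant protein of the lysosomal membrane with Lamp2, had the narrowest spread of the called autosomal genes, with a CAST share of 52.7% ± 0.465 (SD, n = 7). Its log2 fold change of 0.17 (FDR 0.135) lost the call without mouse 1 (FDR 0.202) or mouse 3 (FDR 0.218) and with 1 library size per mouse (FDR 0.315). Mcoln1, the lysosomal calcium channel, was called toward B6 (log2 -0.34, FDR 0.0181), with log2 ratios from -0.66 in mouse 4 to 0.01 in mouse 3.

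None of the 4 regulators and modifiers was called by edgeR's likelihood-ratio test, its quasi-likelihood test or DESeq2 without the block, and 0 had an unadjusted p under 0.05 in the likelihood-ratio test. The likelihood-ratio test called 33.1% of all autosomal genes. With the block Gnptab was called. Tfeb, the transcription factor named above, had 216, 329 and 472 CAST counts and 192, 334 and 609 B6 counts, a log2 fold change of 0.03 (FDR 0.915). Sumf1, which activates all sulfatases, had a log2 fold change of 0.03 (FDR 0.926). Gnptab and Gnptg are subunits of the enzyme that starts the mannose-6-phosphate tag by which hydrolases reach the lysosome. Gnptab had a log2 fold change of -0.11 (FDR 0.427, blocked 0.0502 and 0.127) and Gnptg one of 0.02 (FDR 0.995). The CAST share of Gnptg ran from 42.6% to 60.0% between mice, the widest range among genes not called, and its total was not whole in any mouse.

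Ids and Lamp2 are X-linked, and males carry 1 X chromosome, so their counts show which X the mice had and not an allele difference in expression. Ids, the iduronate sulfatase missing in Hunter syndrome, had 296, 639 and 973 B6 counts at the lowest, median and highest mouse. Its CAST estimate was 2.19 counts in mouse 1 and at most 0.00133 in the other 6 mice. Lamp2 had 1035, 2022 and 2567 B6 counts and 32.0, 54.4 and 99.8 CAST counts. Its CAST share was 3.32% ± 0.704 (SD, n = 7), beside 8.89% ± 0.468 (SD, n = 7) of all X-linked counts. These CAST counts show how many reads of a gene with no CAST copy were given to CAST. The amount differed between the genes, and Lamp2 had a whole total in only 1 mouse against 7 for Ids.

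Over the 40 genes, the total was whole to a tolerance of 1e-04 in all 7 mice for 22, in some mice for 6 and in no mouse for 12. With only the 21 autosomal genes that had whole totals in every mouse, 13 were called (61.9%), 6 toward CAST and 7 toward B6. Of all autosomal genes with whole totals 32.7% were called, and of the protein-coding ones with at least 10 counts 34.0%. Lipa, Tpp1, Ctss, Galc and Hexa were among the 13.

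Levels of the genes were compared as CPM of both alleles per kilobase of exon. They spanned 540-fold over all exons and 178-fold with the longest transcript as length, where Galc stood at 1.38. Ctsd was the highest, at 181 in the lowest mouse, 229 at the median and 251 in the highest, and Galc the lowest, at 0.347, 0.41 and 0.475. After Ctsd came Ctsz at 143 ± 19.1 (SD, n = 7), Hexa at 127 ± 16.9, Lamp1 at 91.3 ± 6.31, Ctsb at 81.4 ± 4.95, Ctsa at 44.9 ± 3.94 and Npc2 at 44.2 ± 6.14. The ranges of Ctsd and Ctsz did not overlap, whereas Ctsz overlapped Hexa, Hexa overlapped Lamp1 and Lamp1 overlapped Ctsb. Within each mouse, though, Ctsz lay above Hexa, Hexa above Lamp1 and Lamp1 above Ctsb. Of the 39 pairs of neighbours in this order only 5 had ranges that did not overlap. Such ranges over mice do not compare genes within a mouse. Levels depend on the length used, and with the longest transcript in place of all exons the same 7 genes led, with Npc2 ahead of Ctsa.

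Among the mucopolysaccharidosis enzymes the order ran from Glb1 at 28.2 ± 3.98 (SD, n = 7), through Gusb at 19.2 ± 1.85 and Naglu at 18.5 ± 2.26, to Ids at 4.56 ± 0.413 and Idua at 3.38 ± 0.272. With the longest transcript Gusb (32.5) lay above Glb1 (30.2) and Arsb (20.6) above Naglu (19.2), while Ids and Idua remained the lowest. Idua and Ids remove iduronic acid and its sulfate from dermatan and heparan sulfate in successive steps. The regulators ran from Tfeb at 4.75 ± 0.353 to Sumf1 at 7.30 ± 0.634 (SD, n = 7), but with the longest transcript Tfeb was the highest of them at 11.5 and Sumf1 stood at 9.58.

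**Figure D4:**
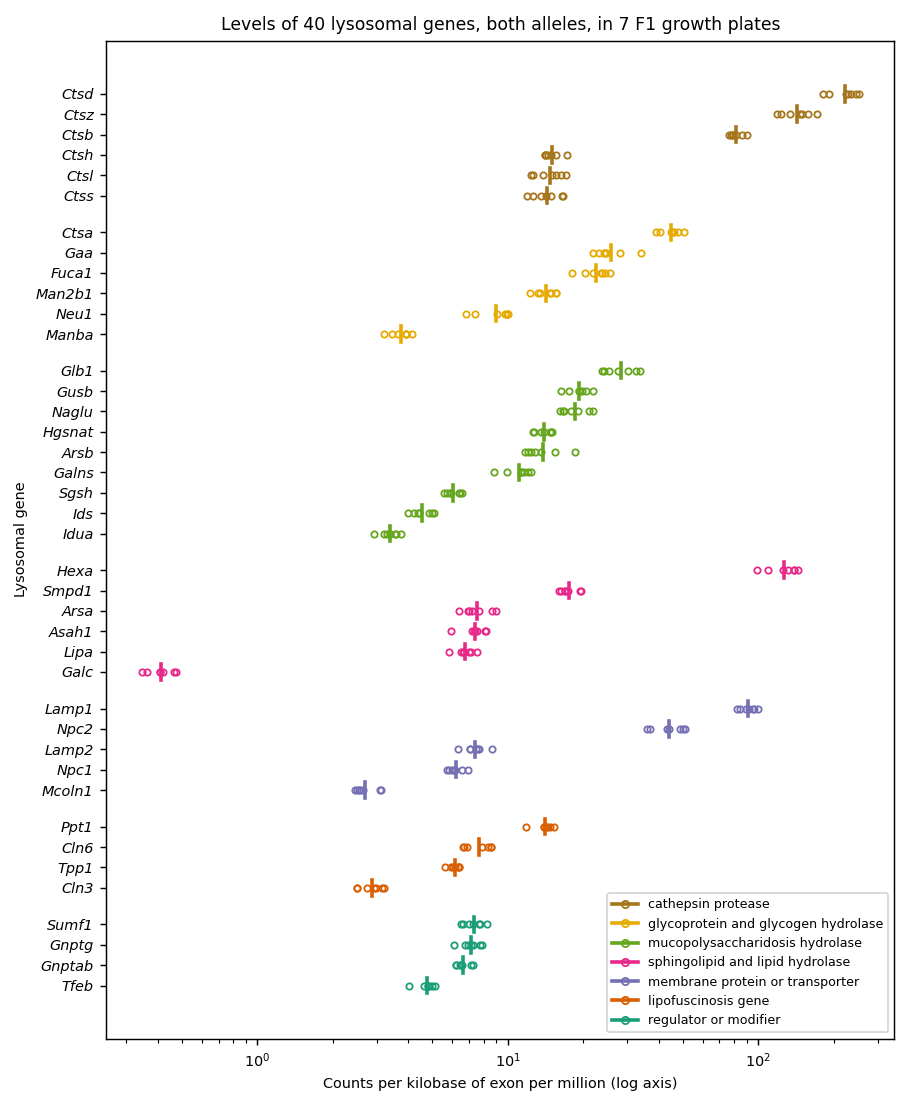
Level of each of the 40 lysosomal genes (x axis, CPM of both alleles per kilobase of exon, log axis), grouped by role; open circles are the 7 mice and bars are means. The cathepsins reach from Ctss at 14.3 to Ctsd at 223, and Galc at 0.412 stands below the other genes.

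The coefficient of variation of these levels over the 7 mice had a median of 9.59% and was highest for Arsb at 17.6%. With plain library totals in place of TMM-scaled ones, an alternative added after seeing the data, the median was 9.97% and Arsb was again the highest at 22.0%. Which mouse stood highest depended on this scaling. With TMM, mouse 2 had the highest level for 16 of the 40 genes, Hexa, Glb1, Gusb, Naglu and Ctsb among them, and mouse 3 the lowest for 17, and their sums over the 40 genes (4071 and 3395 CPM) were the highest and lowest. With plain totals, mouse 7 had the highest level for 14 genes and mouse 4 the lowest for 19, with sums of 3976 and 3336 CPM. With TMM, mice 2 and 3 also had the highest and lowest sums of the osteoclast markers (5408 and 3586) and of the macrophage markers (591 and 464), with every marker of both lists detected, whereas mouse 2 had the lowest sum of the neutrophil markers (1532). With plain totals mice 2 and 3 kept the extremes of the osteoclast markers (5201 and 3714), and mice 5 and 3 had those of the macrophage markers (601 and 481). In whole tissue a difference in the number of such cells and a difference in RNA per cell cannot be told apart, and the part of these cells in the levels was not tested.

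**Figure D5:**
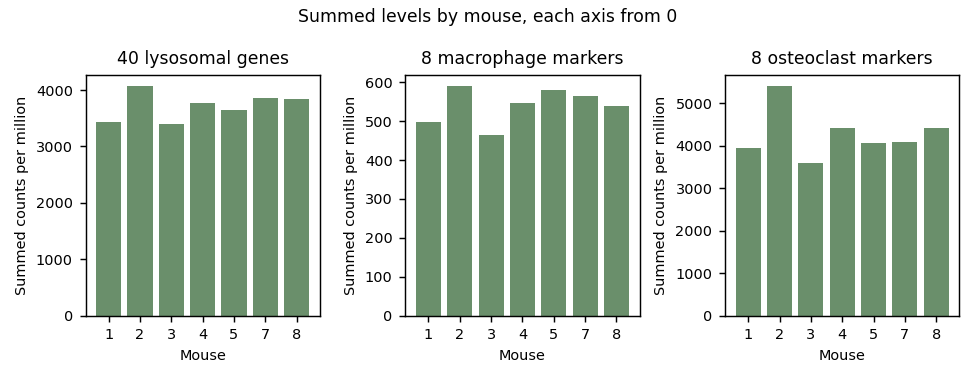
Summed CPM (y axes, from 0) of the 40 lysosomal genes, 8 macrophage markers and 8 osteoclast markers in each of the 7 mice (x axis). With TMM-scaled totals mouse 2 is highest and mouse 3 lowest in all 3 panels, which for the lysosomal genes does not hold with plain totals (mice 7 and 4).

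Of 83 other lysosomal genes, 79 are autosomal, and 31 of these were called (39.2%, beside 33.1% of all autosomal genes), 20 toward CAST and 11 toward B6. The genes not called include Pla2g15, Scpep1, Cd63, Ctns and Gga3, named after their values were seen. Their alleles had equal counts in every mouse, so, as for Arsa, no allele difference can be read from them. Of 24 other autosomal enzymes and activators, 14 were called (58.3%). Among them, Lgmn (legumain, log2 0.51, FDR 3.94e-08), Ctsf (log2 0.52, FDR 3.96e-07) and Acp2 (an acid phosphatase, log2 0.30, FDR 0.00125) were higher on CAST in all 7 mice. Ctbs, a chitobiase, was higher on B6 in all mice (log2 -0.92, FDR 0.000505) from 32.8 ± 19.2 CAST and 62.0 ± 24.2 B6 counts (SD, n = 7).

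Of 17 other membrane proteins 5 were called (29.4%, beside 33.1% of all autosomal genes). All 5 were called toward CAST, as were 16.6% of all autosomal genes, with Slc11a2, an iron transporter, at a log2 fold change of 0.35 (FDR 8.74e-05). Of 14 autosomal v-ATPase subunits, which acidify the lysosome, 5 were called (35.7%). Of 14 autosomal genes of nutrient signalling at the lysosome 2 were called (14.3%). Of 10 other lipofuscinosis and sorting genes 5 were called (50%). The widest of these differences was in Igf2r, the mannose-6-phosphate receptor that carries hydrolases to the lysosome and an imprinted gene expressed mainly from the maternal copy. Igf2r had 90.1, 191 and 251 CAST counts and 4332, 8791 and 11708 B6 counts at the lowest, median and highest mouse. The X-linked Tfe3, a relative of Tfeb, Atp6ap2, a v-ATPase accessory protein, and Gla, an alpha-galactosidase, had 1.42, 2.96 and 5.08 CAST counts on average, against 726, 781 and 162 B6 counts. Atp6ap1, the other X-linked gene of the list, was named after its values were seen. It had 1708, 2650 and 4357 CAST counts and 1755, 2727 and 4477 B6 counts, so near-equal counts were assigned to an X-linked gene in males. Near-equal counts of an autosomal gene therefore do not by themselves show equal expression of the alleles.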

How the data were processed

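Total RNA depleted of rRNA was sequenced from growth plates of 7 F1 mice, with 14098019 to 37849667 counts per mouse. These totals exceed the average read number that the labels state, for a reason not given in the sources used here. The authors aligned reads with Bowtie (at most 3 mismatches) to a joint B6 and CAST transcriptome built on mm10 and used EMASE to make estimated counts per gene and allele, which were deposited without normalization. Versions are not given in the sources used here. GENCODE release M21 (GRCm38) held 98.0% of the identifiers and gave symbols, coordinates and exon lengths.

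Estimates below 1e-06 were taken as 0. A gene was kept if each mouse had a count for 1 allele or both, and rounded counts were compared with edgeR 4.0.16 (TMM, estimateDisp, glmFit, glmLRT, R 4.3.3, limma 3.58.1). P-values were Benjamini-Hochberg adjusted over all 20020 genes. The sign-flip test used log2 ratios with 0.5 added to each count, and scripts used Python 3.11.15. Levels used TMM-scaled totals. Alternatives were the quasi-likelihood test, DESeq2 1.42.0, other scalings, filters and thresholds, a replicate block and each mouse left out. The fit was tested on simulated counts of 13976 genes, 200 of them with 2-fold changes. It recovered 100% of these, and 19.4% of its calls were false. Smaller changes and the pairing of alleles within mice were not simulated. The pairing of alleles follows from the shared mouse, and over 15100 genes, which are not independent replicates, deviations of the alleles of the same mouse correlated at 0.105 on average (lowest -0.03), those of different mice at -0.02 (highest 0.201).

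The 40 genes and all lists were chosen with earlier results of these data known. The text names all 40 genes. Of the other lysosomal genes the rule took the 10 with the smallest P-values among those called with the same direction in all mice, and 1 of these is not reported here.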

Additional observations from a re-analysis of the deposited data

Results flagged for a closer look

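In 2 of 79 sets of 7 mouse values, those of the log2 ratios and levels of the lysosomal genes, a single mouse lay far from the rest, where chance gives about 1 in 20 sets, or 3.95. The log2 ratio of Idua was -1.06 in mouse 4, where it had 74.2 CAST and 155 B6 counts. In the remaining mice it ran from -0.42 to -0.09. The level of Ppt1 was 11.8 CPM per kilobase in mouse 4, while the others lay between 13.9 and 15.3.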

How the results depend on the processing

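Of the 40 lysosomal genes, 20 were called with Ids and Lamp2 included, and the count was 20 with the quasi-likelihood test, DESeq2 and RLE scaling, 18 with 1 library size per mouse, 17 with autosomal genes only, 30 with the replicate block and 14 at an FDR under 0.05. With each mouse left out it was 17 to 21, for other lysosomal genes 31 to 34 and for all genes 6247 to 6851. Of the 18 called autosomal genes 14 were called under all 17 alternatives at an FDR under 0.20, and Naglu, Gaa, Ctsl and Lamp1 were not. The sign turned only in genes not called and near 0: Asah1 to -0.00097 with 1 library size per mouse, and with a mouse left out Neu1 (-0.0912 to 0.00136), Tfeb (-5.13e-06 to 0.12) and Gnptg (-0.0791 to 0.0912), and the cause was not tested. Genes with the same direction in every mouse numbered 23, and 23 to 25 with a mouse left out. With the longest transcript as length, the median level moved from 12.4 to 14.9 CPM per kilobase, since that length is shorter. The filter without the tolerance of 1e-06 was added after seeing the data and left the count at 20. Galc, with 75 to 244 counts per mouse, carries the widest counting error, and the number of reads that tell alleles apart is not known for any gene.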
